A study of Homo sapiens with 28 samples.

Results

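The interferon regulatory factors other than IRF4, namely IRF1, IRF2, IRF3, IRF5, IRF7, IRF8 and IRF9, were examined in ATAC-seq data from multiple myeloma cell lines. ATAC-seq uses the Tn5 transposase to cut and tag open chromatin, so that the number of reads in a region follows its accessibility. Every region that the authors' annotation assigned to 1 of the 7 genes was taken, which gave 30 of 154985 regions. IRF1 and IRF2 had 7 regions each, IRF5 had 6, IRF8 had 5, IRF3 had 3, and IRF7 and IRF9 had 1 each.

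The series held 22 untreated lines and, for 6 of them (Karpas620, KMS27, L363, MM1S, OPM2 and RPMI8226), a second library made on day 3 of treatment with 10 µM lenalidomide, 28 libraries in all. Lenalidomide is a myeloma drug that binds cereblon and leads to degradation of the transcription factors IKZF1 and IKZF3. All libraries came from malignant plasma cell lines grown in culture, the untreated libraries had no drug, and each line was assayed once per condition, so the line is the unit of every comparison. The labels state no further genotype or time for the untreated libraries, no vehicle and no batch.

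Interferon regulatory factors share a DNA-binding domain that reads repeats of GAAA, the core of the interferon-stimulated response element (ISRE). IRF3 and IRF7 are phosphorylated downstream of nucleic acid sensors and switch on type I interferon genes, IRF9 is the DNA-binding part of the complex that carries the interferon signal to the ISRE, and IRF1 is itself induced by interferon through a gamma-activated site (GAS). IRF2 binds many of the same elements and often represses them, IRF5 acts downstream of Toll-like receptors, and IRF8 is a lineage factor of B cells and myeloid cells. IRF4, the family member that plasma cells depend on, was not among the 7 genes.

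The sequences of 2 promoters are shown because they hold letters that match GAS and lie in regions whose levels are described below. They were read from GRCh37, each 5′ to 3′ in the direction of its gene, leaving out bases annotated as untranslated, with matches to TTCNNNGAA (GAS) in capitals.
IRF1, chr5:131826470-131826665, minus strand: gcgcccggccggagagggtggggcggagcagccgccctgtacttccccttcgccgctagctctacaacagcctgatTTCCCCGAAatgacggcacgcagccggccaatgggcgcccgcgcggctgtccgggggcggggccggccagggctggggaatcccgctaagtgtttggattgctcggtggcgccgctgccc
IRF7, chr11:615984-616150, minus strand: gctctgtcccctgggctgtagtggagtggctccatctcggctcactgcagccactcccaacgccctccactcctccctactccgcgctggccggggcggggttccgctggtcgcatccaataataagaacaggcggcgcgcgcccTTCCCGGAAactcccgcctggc

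The IRF1 match lay 120 bp upstream of the canonical start and the IRF7 match 51 bp upstream, both inside accessible regions.

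A further set of short windows is shown because they lie in the regions that the results below turn on. Capitals mark GAS or the IRF repeat GAAANNGAA, and each window is written along the strand on which the motif reads. The first 5 windows come from the region upstream of IRF1 that rose after lenalidomide.
IRF1 upstream region, IRF repeat, chr5:131831564-131831592: ccgttgggagGAAAGAGAActcagccccc
IRF1 upstream region, GAS, chr5:131831975-131832003: gctggccggcTTCCTGGAAagggagggcc
IRF1 upstream region, GAS, chr5:131832297-131832325: gtgcagagctTTCCGCGAAcacctctgca
IRF1 upstream region, IRF repeat, minus strand, chr5:131832708-131832736: gcgtttgcaaGAAACCGAAacccaggctc
IRF1 upstream region, GAS, chr5:131832752-131832780: atcgaggagtTTCCGGGAAccgaaccacg
IRF2 promoter, IRF repeat, minus strand, chr4:185395943-185395971: ctggggaagcGAAAATGAAattgactttt
IRF5 upstream region, IRF repeat, minus strand, chr7:128573267-128573295: ggacaaggagGAAAGGGAAaaggacaaag
IRF7 promoter, IRF repeat, chr11:615684-615712: aggctcccggGAAAGCGAAacctaaacag
IRF9 promoter, GAS, chr14:24630401-24630429: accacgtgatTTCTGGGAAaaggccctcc

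Motifs were searched on both strands in the 500 bp around the midpoint of each region. The median region was 420 bp wide, so for regions narrower than this window flanking sequence was searched too. In these windows the IRF repeat was found for 9 of the 30 regions (30.0%). The share was 23.4% of all regions and 15.2% of all regions within 1 kb of a start. GAS was found in 7 of the 30 (23.3%), against 14.3% of all regions and 10.5% of those within 1 kb of a start. The ETS-IRF composite GGAANNGAA, which overlapped an IRF repeat at the IRF2 promoter and GAS at the IRF1 upstream region, was found in 6 of the 30, against 14.4% of all regions, and the AP-1 site TGANTCA in 4 (13.3%), against 20.9%. Searched over their whole length, 12 of the 30 regions held an IRF repeat and 8 held GAS. These regions were 122 to 1518 bp wide. No whole-length share was computed over all regions, so nothing is read from these counts. A match describes the letters only, and binding was not measured.

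Libraries of untreated lines had 1599857 to 5564534 counts in regions (median 2239819) and lenalidomide libraries 2168680 to 4248017 (median 2655490). Levels are given as CPM, the count of a region scaled to the library's total over all regions. Of 9 plasma cell markers, 9 had a region within 1 kb of a start, with summed levels of 199 to 421 CPM across the 22 lines. The summed levels of the markers with such a region ran from 10.2 to 119 CPM for B cells (6 of 7 markers), 3.04 to 45.4 CPM for T cells (4 of 7), 3.47 to 31.6 CPM for myeloid cells (2 of 7) and 0.944 to 56.8 CPM for erythroid cells (2 of 5).

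Of the 30 regions, 14 lay within 1 kb of an annotated start of their gene and 16 were distal. A library's own peak, meaning a peak called in that library inside the region, was present in all 22 untreated lines at 3 of the 30 regions, a share to be read against 3.98% of all 154985 regions. These were the IRF2 promoter, the IRF9 promoter and the region upstream of IRF1. Among the 14 regions near a start the count was 2, against 18.4% of all 29459 such regions. At the other extreme, 11 of the 30 had an own peak in at most 1 line, as did 45.2% of all regions. IRF3, IRF7 and IRF9 had no distal region, so that the distal regions belonged to IRF1 (5), IRF2 (4), IRF5 (4) and IRF8 (3).

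**Figure D1:**
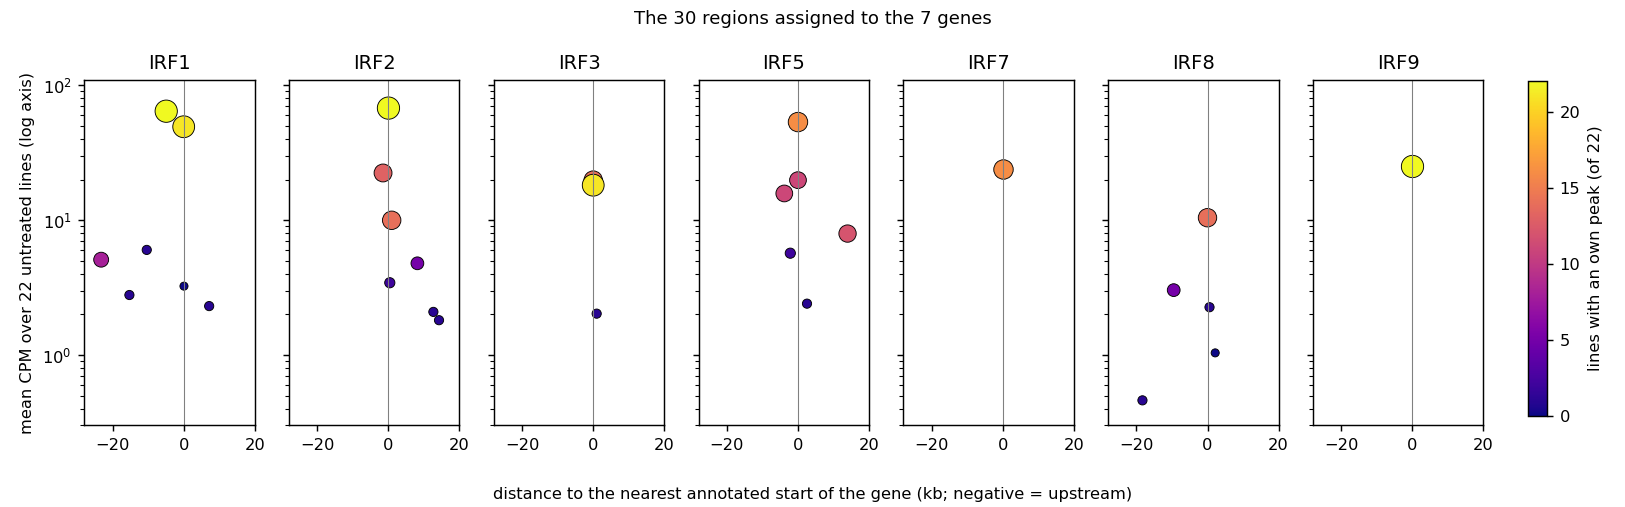
Each point is 1 of the 30 regions, placed by its distance in kb to the nearest annotated start of the gene and by its mean CPM over the 22 untreated lines on a log axis, with point size and colour giving the number of lines with an own peak. The region 4924 bp upstream of IRF1 is as bright as the IRF1 promoter, and the lone regions of IRF7 and IRF9 sit at the start.

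For each gene the region near a start with the highest mean level is called its main promoter region. IRF1, whose product activates interferon-stimulated and antigen presentation genes, had its main promoter region at chr5:131826146-131827074, over the first exon. Its level was 49.3 ± 23.5 CPM (SD, n = 22), from 18.1 CPM in PE1 through a median of 42.2 CPM to 107 CPM in L363, and 21 of 22 lines had an own peak, the exception being PE1. L363 and KMS18 (102 CPM) stood above the next line, KMS27 (77.9 CPM). The region 4924 bp upstream of the gene, chr5:131831415-131832932, reached 64.3 ± 22.6 CPM (SD, n = 22), from 20.3 CPM in OPM2 through a median of 70.6 CPM to 96.1 CPM in OCIMY5, with an own peak in 22 of 22 lines. PE1 was lowest at the promoter and had 72.5 CPM at the upstream region, close to its median.

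Across the 22 lines the IRF1 promoter and its upstream region were weakly related, with Pearson's r = 0.345 and Spearman's rho = 0.317, and r = 0.275 without KMS18 and L363, the lines farthest from the promoter's median. The points of this and every following correlation share each library's depth. Regions on the same chromosome may also share its copy number, which was not measured. The values are given as a description. A smaller region 23236 bp upstream was highest in LP1 (21.3 CPM), XG-6 (15.6 CPM) and KMS26 (12.8 CPM) and lowest in KMS34 (0.433 CPM). Its correlation with the promoter was r = -0.262 (rho = -0.327, and r = -0.278 without KMS18 and L363).

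IRF2 had the highest level per region. Its main promoter region, chr4:185395084-185396552, reached 67.8 ± 24.0 CPM (SD, n = 22), from 28.4 CPM in U266 through a median of 68.7 CPM to 123 CPM in OCIMY5, and it also overlaps a second annotated gene. Inside the gene lie 2 regions with opposite behaviour. The region chr4:185338269-185338835, an intronic stretch near the start of a short transcript, had the smallest spread of all regions of the 7 genes with a mean of at least 5 CPM. Its level ran from 6.24 to 14.7 CPM (median 9.74) and its SD on the log2(CPM + 1) scale was 0.33. The 95% Wilson intervals of its lowest and highest lines overlapped, and 3 lines had an interval wholly above the median and 0 wholly below it.

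The neighbouring intronic region chr4:185341311-185342636, which is 1525 bp from the start of another short transcript, had the largest spread, an SD of 1.62 on the same scale. It ran from 0.624 CPM in XG-6 through a median of 14.6 CPM to 87.0 CPM in OCIMY5. XG-6, OPM2 (1.04 CPM) and KMS34 (1.30 CPM) were nearly without signal, while LP1 (61.2 CPM) and KMS11 (54.7 CPM) came close to OCIMY5. The level of the IRF2 promoter said little about it (r = 0.0944, rho = 0.112, and r = -0.0485 without OCIMY5 and U266), whereas the steady intronic region moved with the promoter (r = 0.669, rho = 0.693, and r = 0.566 without the same lines).

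IRF3, the constitutive factor that sensors activate, had 2 promoter regions of like level. The higher, chr19:50167150-50168080, lies at an internal start and had 19.8 ± 7.31 CPM (SD, n = 22), from 8.97 CPM in KMS18 through a median of 18.5 CPM to 35.8 CPM in KMS11. The other, chr19:50168795-50169440, covers the canonical start together with that of the neighbouring gene BCL2L12, so its signal cannot be assigned to either. It had 18.2 ± 5.10 CPM, from 9.78 CPM in KMS26 through 17.3 CPM to 28.6 CPM in L363, and its SD of 0.39 on the log2(CPM + 1) scale was the next smallest among the regions of the 7 genes with a mean of at least 5 CPM. An own peak was present in 14 lines at the first and in 21 lines at the second, and the correlation between them was r = 0.507 (rho = 0.535, and r = 0.474 without KMS11 and KMS18).

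IRF7, often called the master regulator of type I interferon, had a single region, chr11:615315-616359, and it was the promoter with the widest range. The mean was 23.8 ± 13.5 CPM (SD, n = 22), with a median of 26.8 CPM and a highest level of 46.9 CPM in KMS27. XG-6 had 0 of 1602855 counts there, which allows a level of up to 1.87 CPM, and OPM2 had 1.57 CPM. The 6 lines without an own peak, XG-6, OPM2, PE1, KMS28, KMS26 and KMS34, had at most 10.4 CPM, and the 16 lines with one had at least 16.7 CPM. This split is that of the peak call, which comes from the same reads, and the intervals of KMS34 (10.4 CPM, 6.98 to 15.5) and KMS21BM (16.7 CPM, 11.5 to 24.1) on its sides overlapped.

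The chromosome around IRF7 differed between the 2 lowest lines. The 24 other regions within 100 kb of it summed to 115 CPM in XG-6, the lowest of the 22 lines and below their median of 226 CPM. In OPM2 the same regions summed to 328 CPM, which ranked 20 of 22 from the lowest. In OPM2 the neighbouring regions were thus not low, and in XG-6 they were the lowest of any line but above 0.

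IRF5 had 6 regions and varied nearly as much. Its main promoter region, chr7:128580140-128581531, lies at a downstream start and had 53.4 ± 36.7 CPM (SD, n = 22), from 4.89 CPM in KMS26 through a median of 48.0 CPM to 126 CPM in KMS34. PE1 (125 CPM), KMS12BM (119 CPM) and PCM6 (101 CPM) were close to KMS34, and LP1 (9.55 CPM) and OPM2 (9.91 CPM) close to KMS26. The region over the canonical start, chr7:128577766-128578301, had 19.8 ± 10.6 CPM, from 0.522 CPM in OPM2 to 42.4 CPM in KMS34. These promoter regions moved together (r = 0.737, rho = 0.711, and r = 0.697 without LP1 and KMS26), and so did the region 3851 bp upstream, chr7:128573112-128573814, with the main promoter (r = 0.585, rho = 0.627, and r = 0.599 without the same lines). That upstream region had 15.8 ± 11.6 CPM, from 1.39 CPM in KMS28 to 41.5 CPM in KMS34.

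A region 2164 bp upstream of IRF5, chr7:128574731-128575501, was accessible in a small set of lines. RPMI8226 (27.9 CPM), PCM6 (24.2 CPM), KMS12BM (21.8 CPM) and Karpas620 (16.7 CPM) stood apart from the other lines, which had at most 4.78 CPM. An own peak was called in PCM6 and Karpas620 only, although RPMI8226 had the highest level. The region 13955 bp downstream of the nearest start, chr7:128594848-128595478, overlaps the gene TNPO3 and may belong to either gene. It ran from 0.295 CPM in OCIMY5 to 18.2 CPM in MM1S.

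IRF8 had the weakest main promoter region, chr16:85936088-85936821, which lies downstream of the canonical start within the gene, at the start of a shorter transcript. It had 10.4 ± 7.83 CPM (SD, n = 22), from 1.39 CPM in PCM6 through a median of 9.65 CPM to 27.3 CPM in KMS34, with an own peak in 14 lines. KMS34, KMS18 (26.9 CPM) and PE1 (24.4 CPM) stood above the next line, RPMI8226 (15.6 CPM). The table held no region between positions 85922893 and 85936088 of chromosome 16, so the canonical start lies outside every region counted. Of the distal regions, the brightest lay 9515 bp upstream and had 3.03 ± 3.30 CPM with an own peak in 5 lines.

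IRF9 had a single region, chr14:24630058-24631001, and it was the steadiest main promoter. It had 25.4 ± 7.13 CPM (SD, n = 22), from 15.1 CPM in OPM2 through a median of 24.8 CPM to 37.4 CPM in KMS20, with an own peak in 22 of 22 lines. Its SD on the log2(CPM + 1) scale was 0.40, against 1.40 for IRF7, 1.20 for IRF5, 1.10 for IRF8, 0.64 for IRF1, 0.53 for IRF2 and 0.50 for IRF3.

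**Figure D2:**
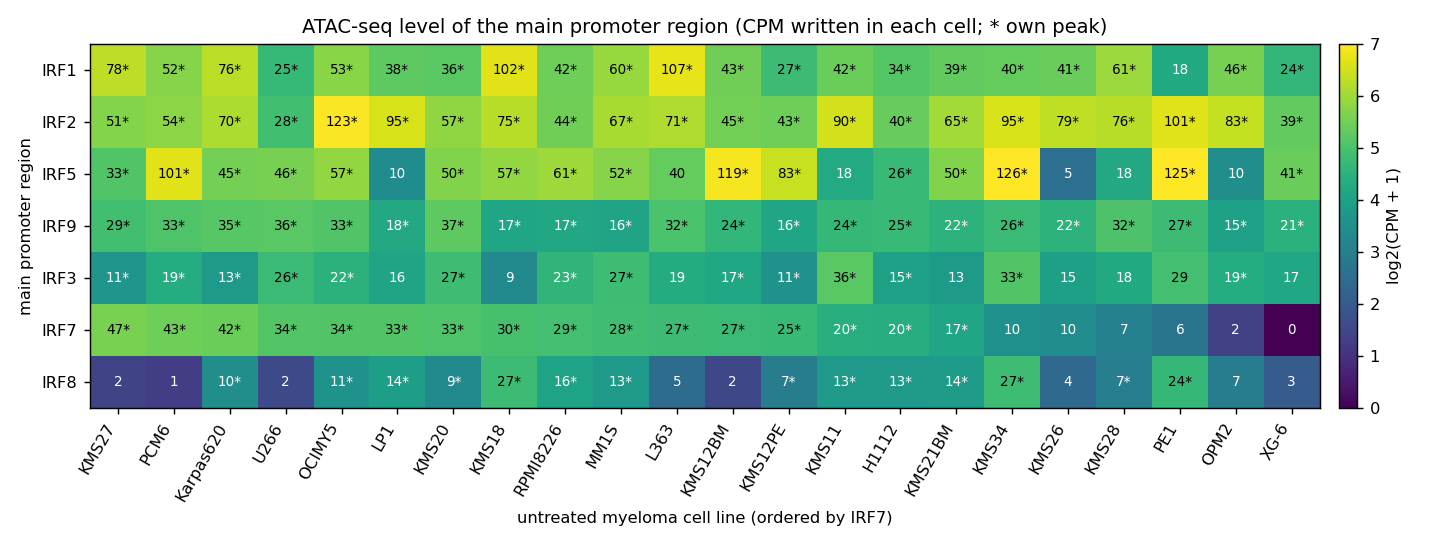
Rows are the main promoter regions of the 7 genes and columns the 22 untreated lines, ordered by their IRF7 level, with the CPM written in each cell, an asterisk for an own peak and colour giving log2(CPM + 1). IRF9 is even across the lines, IRF7 falls to 0 CPM in XG-6, and XG-6 and KMS26 are low at both IRF7 and IRF8 while PCM6 and KMS27 are the lowest lines at IRF8 and the highest at IRF7.

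Counting error left the order of neighbouring lines mostly unresolved. Lines sorted by level lie close to their neighbours by construction, so overlap of neighbours says nothing about the spread over all lines. When the 22 lines were ordered by level, the 95% Wilson intervals of neighbouring lines overlapped in 21 of 21 pairs at each main promoter region except IRF5, where they overlapped in 20 of 21. The lowest and highest lines did not overlap at any of the 7. At IRF7, 9 lines had an interval wholly below the median level and 6 lines wholly above it. At IRF9 these counts were 6 and 6. The intervals cover counting error only.

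Levels of different genes can be compared only per length. Per kb of region, the order of the mean on the log2(CPM per kb + 1) scale was IRF1 (53.1 ± 25.3 CPM per kb), IRF2 (46.1 ± 16.4), IRF5 (38.4 ± 26.4), IRF9 (26.9 ± 7.55), IRF3 (21.3 ± 7.85), IRF7 (22.7 ± 12.9) and IRF8 (14.2 ± 10.7), all SD with n = 22. The main promoter of IRF4 had 25.9 ± 10.2 CPM per kb. Of the 6 pairs of neighbours in the order of the 7 genes, 1 differed in a two-sided sign-flip permutation test over the lines. The pairs and the direction of each difference were set by the same levels that were tested, so the p-values are a description. IRF9 exceeded IRF3 by 0.35 ± 0.56 (SD of the difference in log2(CPM per kb + 1), n = 22), higher in 16 of 22 lines (permutation p = 0.0082, unadjusted). With all regions near a start summed for each gene the difference was 0.18 (permutation p = 0.095). IRF1 and IRF2 differed by 0.15 ± 0.71 (higher in 12 of 22 lines, permutation p = 0.35), IRF2 and IRF5 by 0.55 ± 1.38 (14 of 22, permutation p = 0.073), IRF5 and IRF9 by 0.17 ± 1.16 (11 of 22, permutation p = 0.49), IRF3 and IRF7 by 0.23 ± 1.53 (8 of 22, permutation p = 0.51), and IRF7 and IRF8 by 0.63 ± 1.83 (15 of 22, permutation p = 0.12).

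The 7 promoters did not rise and fall as 1 group. Among the 21 pairs of main promoter regions, the strongest relation was between IRF2 and IRF8 (r = 0.556, rho = 0.51, and r = 0.499 without OCIMY5 and U266), followed by IRF1 and IRF7 (r = 0.42, rho = 0.385, and r = 0.418 without KMS18 and L363). The most negative by r over all lines was IRF1 with IRF3 (r = -0.357, rho = -0.224, and r = -0.243 without KMS18 and L363). By rho it was IRF8 with IRF9 (rho = -0.272, r = -0.307). IRF7 with IRF8 had r = -0.0327, and r = -0.39 without OPM2 and XG-6. IRF7 and IRF9 had r = 0.287 (rho = 0.425), which fell to r = 0.0634 without OPM2 and XG-6. Single lines showed this mix. PE1 was among the 3 highest lines at 4 of the 7 main promoters and among the 3 lowest at 2, KMS34 was among the 3 highest at 4, and OPM2 and XG-6 were each among the 3 lowest at 3.

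Own peaks followed depth. The number of main promoter regions with an own peak ran from 3 in KMS26 to 7 in 7 lines, and over the 22 lines it had r = 0.638 and rho = 0.707 with the total count. The summed level of the 30 regions, 280 to 675 CPM, had r = -0.00212 and rho = 0.0344 with it. CPM are already divided by the total count, so these values cannot be set against those of the own peaks.

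KMS12BM and KMS12PE, lines established from the same patient, differed by less than the SD over the 22 lines at 3 of the 7 main promoters and by more at 4. On the log2(CPM + 1) scale KMS12BM was higher by 0.07 at IRF7, 0.06 at IRF2 and 0.51 at IRF5, all below the SD. It was higher by 0.68 at IRF1 (SD 0.64), 0.57 at IRF3 (SD 0.50) and 0.53 at IRF9 (SD 0.40). At IRF8, KMS12BM had 1.84 CPM and KMS12PE 6.62 CPM, a difference of -1.42 (SD 1.10). With 1 library of each, these differences have no replicate check.

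The level of the surrounding chromosome moved with several of the promoters. For each line the CPM of the other regions within 5 Mb of a main promoter were summed and divided by the median over lines. This local signal ran from 0.445 in U266 to 1.59 in OCIMY5 around IRF2, and those were also the lowest and the highest line at the IRF2 promoter (r = 0.805, rho = 0.802). It ran from 0.632 in MM1S to 1.74 in KMS20 around IRF9 (r = 0.791, rho = 0.772), from 0.589 to 1.36 around IRF1 (r = 0.64, rho = 0.643) and from 0.459 in XG-6 to 1.40 in KMS27 around IRF7 (r = 0.60, rho = 0.651). Around IRF8 the relation was weak (r = 0.135, rho = 0.0706). Dividing by the local signal reduced the SD on the log2(CPM + 1) scale from 0.53 to 0.33 for IRF2, from 0.40 to 0.27 for IRF9 and from 0.64 to 0.50 for IRF1, and left IRF7 at 1.35, IRF5 at 1.11 and IRF8 at 1.12. Copy number was not measured here and its part in these levels was not tested.

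**Figure D3:**
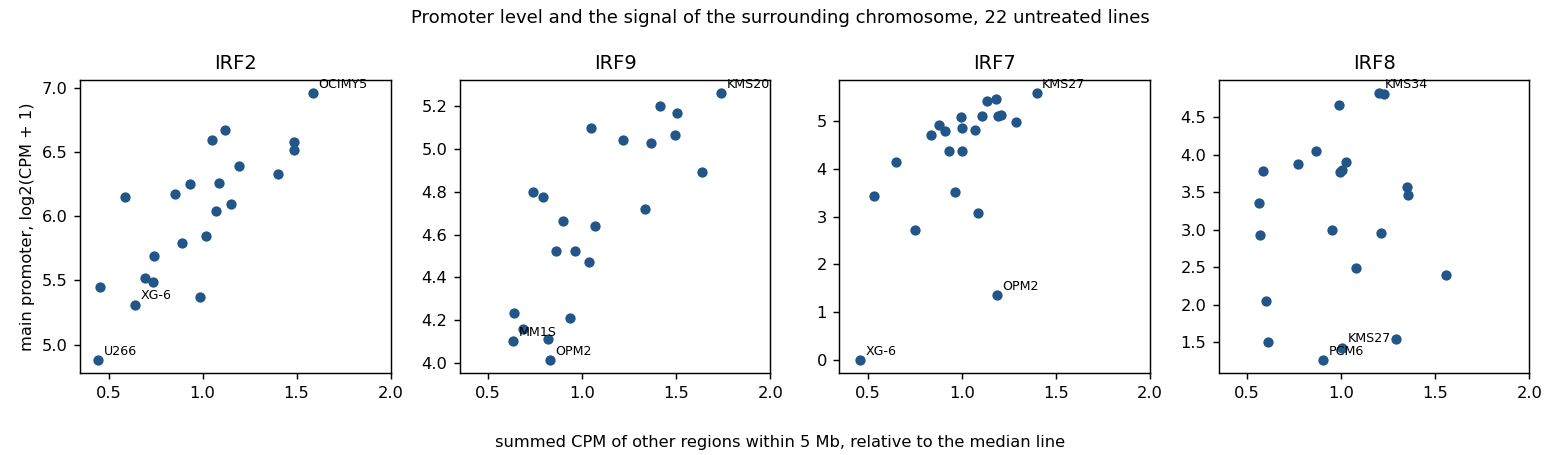
Each point is 1 of the 22 untreated lines, with the summed CPM of other regions within 5 Mb, relative to the median line, on the x axis and log2(CPM + 1) of the main promoter region on the y axis. IRF2 and IRF9 follow the local signal, IRF8 does not, and OPM2 at IRF7 lies far below lines of like local signal.

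The genes whose main promoters most resembled each factor's were partly its chromosome neighbours. Among 13536 other genes with a mean of at least 5 CPM, the highest Spearman correlations with IRF9 over the 22 lines belonged to PNP (0.901), IPO4 (0.877) and HOMEZ (0.863), all on chromosome 14. MLF1IP (0.854), which lies on chromosome 4 with IRF2, was the closest to IRF2, followed by PRKCA and NRG3 (both 0.846). IRF1 was closest to QSOX2 (0.852), WASH7P (0.844) and C5orf24 (0.839), the last on chromosome 5 with IRF1. IRF3 was closest to RASA4B (0.764), STAT4 (0.746) and NPR3 (0.741). IRF5 was closest to RP11-983P16.4 (0.781), TRANK1 (0.773) and ZNF197-AS1 (0.763), and IRF8 to SPOCK1 (0.794), FAM84A (0.788) and C11orf45 (0.758). IRF7 was closest to GOLGA5 (0.750), CD74 (0.745), the invariant chain of MHC class II, and RP11-1379J22.5 (0.726). For CD74 Pearson's r was 0.844, and 0.750 without OPM2 and XG-6. These are the highest of many values.

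Lenalidomide left the main promoter regions of the 7 genes without a called change and raised 1 distal region. Of the 30 regions, 16 passed the filter on low counts, and the main promoter regions of all 7 genes were among them. With edgeR's quasi-likelihood test, the line as block and Benjamini-Hochberg adjustment over all 37732 regions tested, 1 of the 16 rose, against 4.17% of all tested regions, and 0 fell, against 1.22%. At an unadjusted p under 0.05, 3 of the 16 were higher and 0 lower by edgeR, against 10.5% and 6.87% of all tested regions. By DESeq2 2 were higher and 0 lower, against 6.7% and 3.65%. Without the line as block, 0 of all 37732 regions passed in edgeR, which holds for every call below.

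The region that rose lies 4924 bp upstream of IRF1 and holds the 3 GAS and 2 IRF repeats printed above. It went from 69.4 to 88.4 CPM in Karpas620, from 89.7 to 109 CPM in KMS27, from 71.4 to 83.0 CPM in L363, from 76.6 to 91.8 CPM in MM1S, from 20.3 to 26.7 CPM in OPM2 and from 77.0 to 101 CPM in RPMI8226. It was higher in 6 of 6 lines, although the ranges of the untreated and treated levels overlapped, since OPM2 was low in both. The log2 fold change was 0.31 ± 0.08 (SE, n = 6 pairs; 95% interval 0.14 to 0.49), a 1.24-fold rise, with adjusted p = 0.021 in edgeR. The call was lost without Karpas620 (adjusted p = 0.066), without KMS27 (0.092) or without MM1S (0.058), with DESeq2 (0.16) and without the line as block (1.0), while the log2 fold change stayed between 0.30 and 0.38 under every alternative.

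The main promoter region of IRF1 did not follow. It went from 68.2 ± 23.9 to 67.4 ± 25.7 CPM (SD, n = 6 lines), higher in 3 and lower in 3, with a log2 fold change of -0.02 ± 0.09 (SE; 95% interval -0.21 to 0.18; edgeR adjusted p = 0.97). Its direction changed with the filter and with the lines kept. The other IRF1 region near a start, chr5:131824904-131825260, did not pass the filter on low counts and was not tested. It was higher after lenalidomide in 6 of 6 lines, with a median of 1.98 CPM untreated and 3.68 CPM treated. RPMI8226 went from 4.72 to 15.3 CPM there. Counts were few, from 3 to 4 in L363 and from 7 to 8 in MM1S. Every other untested region of the 7 genes had a mean change below 0 on the log2(CPM + 1) scale. An example is the IRF1 region chr5:131817362-131817556, with -0.70 and lower levels in 5 of 6 lines.

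**Figure D4:**
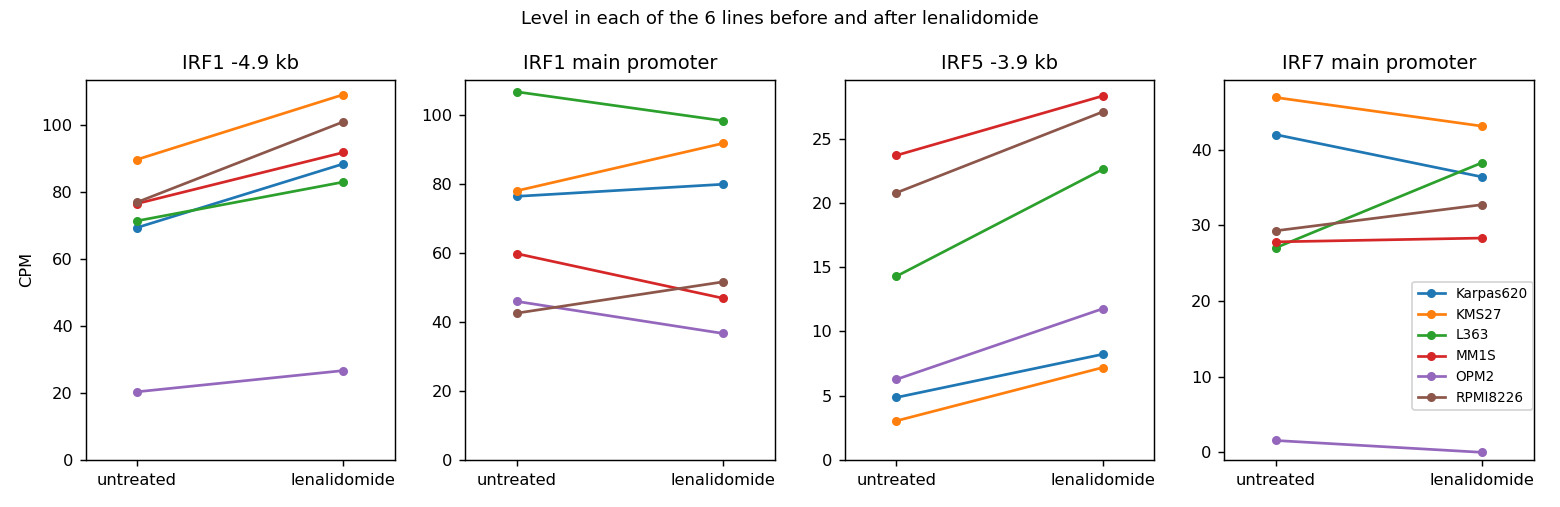
Each line joins the CPM of 1 cell line without and with lenalidomide, in 4 regions with separate y axes. All 6 lines rise at the region 4.9 kb upstream of IRF1 and at the region 3.9 kb upstream of IRF5, the IRF1 promoter moves both ways, and OPM2 stays at or near 0 CPM at IRF7.

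IRF5 had the next smallest p. At the region 3851 bp upstream, Karpas620 went from 4.86 to 8.22 CPM, KMS27 from 3.04 to 7.18 CPM, L363 from 14.3 to 22.6 CPM, MM1S from 23.7 to 28.3 CPM, OPM2 from 6.26 to 11.8 CPM and RPMI8226 from 20.8 to 27.1 CPM. It was higher in 6 of 6 lines, with a log2 fold change of 0.59 ± 0.19 (SE; 95% interval 0.21 to 0.98), and missed the threshold with adjusted p = 0.060 in edgeR. With no filter on low counts it passed (adjusted p = 0.040). The main promoter of IRF5 had a log2 fold change of 0.02 ± 0.11 (95% interval -0.21 to 0.25, adjusted p = 0.96).

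The other main promoters gave log2 fold changes of 0.37 ± 0.16 for IRF3 (higher in 5 of 6 lines, adjusted p = 0.21), 0.38 ± 0.24 for IRF8 (4 of 6, adjusted p = 0.44), 0.18 ± 0.14 for IRF9 (5 of 6, adjusted p = 0.58), 0.03 ± 0.15 for IRF7 (3 of 6, adjusted p = 0.96) and -0.19 ± 0.10 for IRF2 (1 of 6, adjusted p = 0.31), all with SE and the edgeR test. The 95% intervals were widest for IRF8 (-0.10 to 0.87), whose level was low, and IRF3 (0.05 to 0.70). For IRF7 the interval was -0.27 to 0.32. At IRF7, OPM2 had 1.57 CPM untreated and 0 CPM after lenalidomide, where 3 counts correspond to 1.36 CPM, so no fold is given for it. Over the 16 tested regions the median log2 fold change was 0.15 and 13 were above 0 (81.2%), beside a median of -0.01 and 48.3% over all tested regions. The regions of 1 gene share a locus and are not independent of each other.

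**Figure D5:**
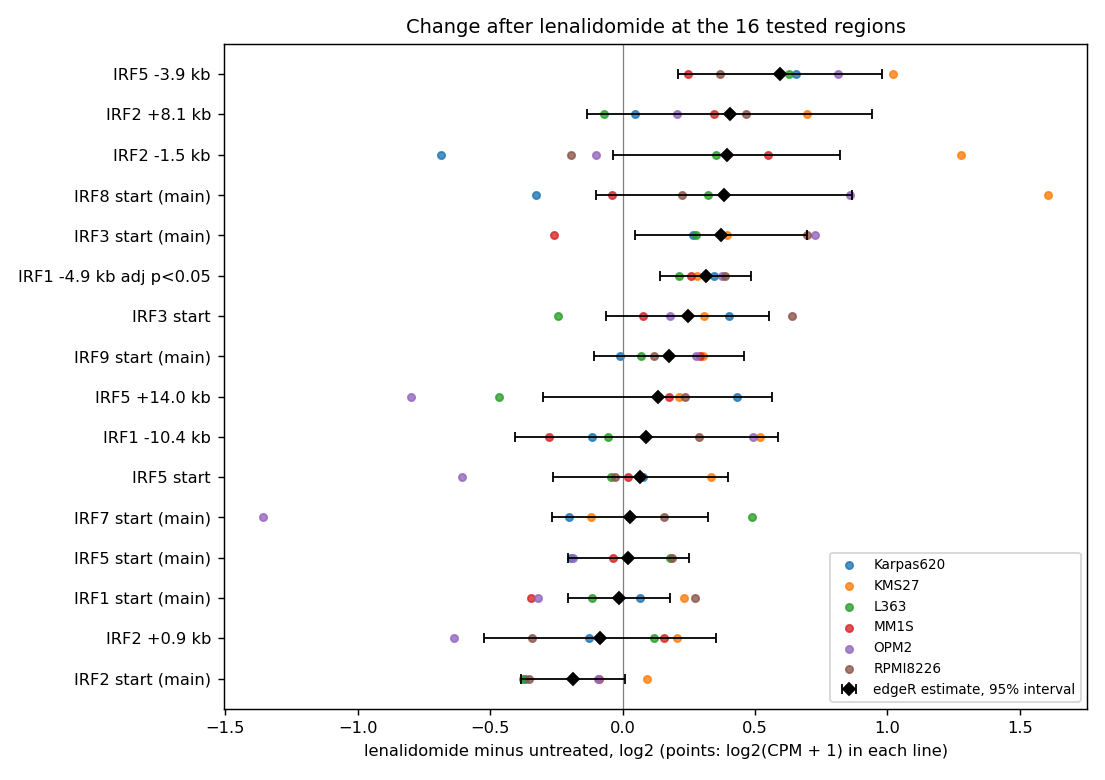
The 16 tested regions, named by gene and distance to the nearest start, with the edgeR log2 fold change and its 95% interval (diamonds and bars) and the difference in log2(CPM + 1) of each of the 6 lines (coloured points). The 6 points of the region 4.9 kb upstream of IRF1 lie close together and above 0, and those of IRF7, IRF8 and the intronic IRF2 region 1.5 kb from a start are spread widely.

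The genes around the factors were taken 1 main promoter each. Of 16 genes of the interferon receptors and the JAK-STAT pathway, 16 were tested, 1 rose and 0 fell. Of all 16151 tested regions within 1 kb of a start, the background for these lists of promoters, 2.25% rose and 0.625% fell, 46.0% had a log2 fold change above 0 and the median was -0.02. This was USP18, a brake on the type I receptor, with a log2 fold change of 0.78 ± 0.23 (higher in 6 of 6 lines, edgeR adjusted p = 0.033). The call was lost without Karpas620, KMS27, L363 or MM1S (adjusted p from 0.054 to 0.14) and with DESeq2 (0.14). STAT2, the partner of IRF9, had 0.29 (6 of 6 lines, edgeR adjusted p = 0.054).

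Of 23 genes of nucleic acid sensing upstream of IRF3 and IRF7, 17 were tested, 3 rose (against 2.25%) and 0 fell, with 11 of 17 above 0 and a median log2 fold change of 0.16. DDX58, which encodes the RNA sensor RIG-I, went from a mean of 15.6 to 39.6 CPM, a log2 fold change of 1.31 ± 0.16 (higher in 6 of 6 lines, edgeR adjusted p = 1.9e-06), and TMEM173, which encodes the DNA sensing adaptor STING, from 17.9 to 30.1 CPM (0.76 ± 0.16, 6 of 6 lines, adjusted p = 0.0018). Both kept the call without each of the 6 lines and with DESeq2. IFIH1, the RNA sensor MDA5, had 0.37 ± 0.10 (5 of 6 lines, adjusted p = 0.019), and lost the call without Karpas620 (0.14), KMS27 (0.10) or OPM2 (0.059) and with DESeq2 (0.13). The kinases that phosphorylate IRF3 and IRF7 did not pass, with 0.06 for TBK1 (adjusted p = 0.88) and -0.07 for IKBKE (adjusted p = 0.86).

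Of 32 interferon-stimulated targets, 21 were tested, 4 rose (against 2.25%) and 0 fell, with 18 of 21 above 0 (against 46.0%) and a median log2 fold change of 0.29 (against -0.02). The 4 were RSAD2 (0.93 ± 0.22, edgeR adjusted p = 0.0068), MX2 (0.84 ± 0.22, adjusted p = 0.018), IFI6 (0.84 ± 0.17, adjusted p = 0.0015) and BST2 (0.48 ± 0.14, adjusted p = 0.043), all genes whose products act against viruses. IFI6 kept its call without each line and with DESeq2. The count was 2 without MM1S, 1 without OPM2 and 2 with DESeq2, and BST2 also lost its call without Karpas620, L363 or RPMI8226 (adjusted p from 0.088 to 0.17). OAS1 (0.54, adjusted p = 0.075), OAS2 (0.29, adjusted p = 0.26) and IFIT1 (0.42, adjusted p = 0.19) were higher in 6 of 6 lines and did not pass.

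Of 17 DNA-binding partners and co-regulators of the family, 15 were tested, 1 rose (against 2.25%) and 0 fell. BATF2, an AP-1 family protein that pairs with IRF1, went from 3.52 to 10.9 CPM (1.61 ± 0.26, 6 of 6 lines, edgeR adjusted p = 0.00011), a call kept without each line and with DESeq2. Only 1 of the 22 untreated lines had an own peak there. The filter on low counts can be passed on the libraries of 1 condition alone. The untreated mean of BATF2, 3.52 CPM, was below the level that the filter asks of 6 libraries. BATF2 thus entered the test through treated libraries, where it was higher, and its p-value is to be read with that limit. IKZF1 and IKZF3, the proteins that lenalidomide degrades, had promoter log2 fold changes of -0.15 (adjusted p = 0.62) and 0.24 (adjusted p = 0.69). IRF4 had 0.19 (adjusted p = 0.48). Of the 9 plasma cell markers 1 fell, MZB1 (-0.49 ± 0.14, lower in 5 of 6 lines, adjusted p = 0.031), a call lost without Karpas620, KMS27, L363 or MM1S, with no filter on low counts and with DESeq2. Of the tested B cell (3), T cell (1), myeloid (1) and erythroid (1) markers, 0 passed in edgeR and 1, the myeloid CSF3R, had an unadjusted p under 0.05 (0.48, adjusted p = 0.28). The part of these markers in the changes above was not tested. The lists were chosen with earlier results of these data known, and nothing particular to a list is read from its count.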

How the data were processed

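The authors aligned ATAC-seq reads to GRCh37, used MACS2 (q of 0.01) on each library, and pooled the peaks of all libraries into 154985 autosomal regions with a count for each. The submitters' processing notes list Bowtie2 2.2.6, SAMtools 1.7 and MACS2 2.1.0.20151222. Removal of duplicates, transposase shifting and the counting of reads or fragments are not given in the sources used here. The deposited counts are raw. A second deposited table of whole numbers was read as the number of a library's own peaks in each region, a reading that no file header states.

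The 7 genes and the lists were chosen with earlier results of these data known. All regions of the authors' annotation with 1 of the 7 symbols were kept, and 1 kb from an annotated start was the limit of a promoter. CPM were computed on the total over regions, log2 values used a pseudocount of 1, and intervals are 95% Wilson intervals, with 3 counts as the limit that a count of 0 allows. Both cover counting error only, as PCR reads are not independent molecules. Values were given for the main promoter region and the brightest distal region of each gene, for the 2 regions of largest and the 2 of smallest spread among those with a mean of at least 5 CPM, and for every region called after lenalidomide. The regions shown beyond these were chosen after their values were seen, as were the genes named in each list other than those called.

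Lenalidomide was tested with edgeR 4.0.16 in R 4.3.3 (TMM, filterByExpr by condition, quasi-likelihood F test, cell line as block because the labels pair the libraries by line, adjusted p below 0.05). DESeq2 1.42.0 and other scalings, filters and subsets of lines were alternatives. On simulated counts for 37732 regions the edgeR fit found 135 of 200 regions changed 2-fold, with 5 false calls. Levels were compared over 22 lines by 100000 random sign flips, two-sided. Nothing says that the 2 libraries of a line come from separate cultures. With the line as block, the edgeR p-values set the change within lines against its variation from line to line and counting error. That variation is estimated with information shared over regions. The permutation p-values set the difference between 2 genes against its spread over lines. Sequences were read from the GRCh37 primary assembly with GENCODE v44lift37, in which 90.4% of the table's transcript positions were the same. The RPM coverage tracks and peak lists were not used here, and 0 sample columns were left unmapped. Some items are not reported here.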

Additional observations from a re-analysis of the deposited data

Results flagged for a closer look

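In 32 sets of 6 values, the levels after lenalidomide and the changes of the 6 lines at the 16 tested regions, 3 held a line far from the other 5 by Dixon's test, where chance gives about 1 in 20, or 1.6. All 3 were OPM2. At the IRF7 promoter OPM2 had 0 CPM after lenalidomide, where the next lowest line had 28.3 CPM, and its change of -1.36 in log2(CPM + 1) stood below the next lowest, -0.201. That change is between 1.57 CPM and 0 CPM, both about 3 counts or fewer. At the region 4924 bp upstream of IRF1 OPM2 had 26.7 CPM after lenalidomide, and the next lowest line 83.0 CPM. OPM2 was also the lowest of the 22 untreated lines there, with 20.3 CPM.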

How the results depend on the processing

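Each line was assayed once per condition, so low levels such as those of IRF8 rest on few counts. Regions of the 7 genes raised by lenalidomide numbered 1 of 16 as reported, 2 with no filter on low counts, 0 with DESeq2, 0 without the replicate block of cell lines, and 0 to 1 when each line was left out. Of all regions, 1575 rose and 461 fell. With no filter 3608 rose, with at least 10 counts in each library 472 rose and 115 fell, with DESeq2 722 rose and 112 fell, and without the block 0 rose and 0 fell (401 and 39 at an unadjusted p under 0.05 in edgeR). Leaving out each line gave 875 to 1919 rises and 192 to 584 falls. The excess of IRF9 over IRF3 was 0.18 with the regions near a start summed and no longer passed. The causes were not tested.

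Of 165 changes at the 16 regions under these alternatives, 153 kept their sign, and the other 12 belonged to 6 regions, whose adjusted p was at least 0.899 as reported. Leaving out each line gave log2 fold changes of -0.066 to 0.0852 at the IRF7 promoter (-0.066 without L363, -0.00288 without RPMI8226), -0.175 to 0.0259 at the intronic IRF2 region 908 bp from a start, -0.0939 to 0.0394 at the IRF1 promoter (0.0111 without L363, 0.0282 without OPM2), -0.0114 to 0.201 at the region 10403 bp upstream of IRF1, -0.026 to 0.0995 at the canonical IRF5 promoter and -0.0242 to 0.0672 at the main IRF5 promoter (-0.00604 without L363). The IRF1 promoter had 0.0405 with no filter and 0.00548 with at least 10 counts in each library.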
